A study of Mus musculus with 3 samples.

Results

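The genes described here are the caspases, the BCL2 family, the death receptors with their adaptors, and the regulators that act on them, read in ovaries of mice with a conditional knockout of the clock gene Bmal1. A list of 40 gene names was matched to the gene name column of the arrays, where Fas could also be written Tnfrsf6. Birc4 is the older name of Xiap and no probe was named Bcl2a1a, so 38 genes were found among 28090 gene names, on 68 probes and 131 spots. Of these, 36 genes were bright enough to test, among 17898 genes tested in all. Fasl and Hrk were too dim.

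The study used 3 two-colour Agilent whole mouse genome arrays, each comparing 2 RNA pools in the same spots. The conditional knockout (cKO) group consisted of Bmal1fxfx females that also carried Cre, a recombinase, under control of the sf-1 promoter, labelled with cy3, and the control group consisted of Bmal1fxfx females without Cre, labelled with Cy5. All were C57Bl/6J mice of 10 weeks, kept in light and dark periods of 12 h each with food and water at will and killed at zeitgeber time 12 at 3.5 days after copulation. Each pool held ovary RNA of 3 animals, 9 animals per genotype in all, and cKO pools 4, 5 and 7 met control pools 2, 3 and 1 on arrays 1, 2 and 3. Both groups carried the floxed alleles, so that the groups differed in Cre by their labels. The genotype label of the cKO channel ends in the number of the array, so the titles of the arrays and the design text were used to assign genotypes. The sf-1 promoter is active in steroidogenic cells of the gonads and the adrenal, and also in the pituitary and hypothalamus, while the RNA came from the whole ovary. In such tissue fewer cells of a type and less RNA per cell cannot be told apart. No array had the dyes swapped, so dye and genotype cannot be told apart either.

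Apoptosis runs through a pair of connected routes. In the mitochondrial route, BH3-only proteins release BAX and BAK from survival proteins such as BCL2 and MCL1, the outer membrane of mitochondria becomes permeable, and cytochrome c with APAF1 activates caspase 9. In the receptor route, ligands such as FASL bind death receptors, which recruit adaptors and caspase 8. Executioner caspases then cut the cell's proteins, and inhibitor of apoptosis proteins restrain them. In the ovary this machinery is known for removing follicles that do not ovulate and for the regression of the corpus luteum. BMAL1 is a transcription factor that, with CLOCK, activates genes through a DNA element called the E-box.

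No apoptosis gene passed the test. Limma, applied to the log2 ratio of cKO over control of the deposited scanner values (0 means equal signal, and 1 means 2-fold higher in cKO), called 0 of the 36 genes at an adjusted p under 0.05. The share called among all genes tested was 0.302%, or 54 genes, 28 of them higher in cKO (0.156%) and 26 lower (0.145%). With arrays scaled to a common spread 6 were higher and 0 lower, and with the slide as a block 135 were higher and 92 lower. At an unadjusted p under 0.05 there was 1 apoptosis gene, Diablo, where 5.98% of all genes passed. After other processing (background correction by normexp and loess normalisation) 0 of 36 were called and 8 had an unadjusted p under 0.05, with 0.223% and 12.3% of all genes. Each of the 3 arrays gave 1 ratio of 2 pools, so p-values measure the spread of these ratios between arrays. That spread mixes pools with hybridisations, and limma draws it toward the spread of all genes. The small number of arrays limits the precision.

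Most of the ratios were small, as they were over all genes. The median absolute mean log2 ratio was 0.184 for the apoptosis genes and 0.169 for all genes tested. The mean log2 ratios of the 36 genes ran between -0.61 and 0.53, with a median of 0.05, against -0.02 over all genes tested. The median SD over the 3 arrays was 0.206 for the apoptosis genes and 0.415 for all genes. The 95% intervals from limma reached 0.511 to 0.840 on either side of the mean, and 32 of 36 lay wholly within 1 of 0. The exceptions were Diablo, Casp4, Bcl2l1 and Bcl2.

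On direction alone, 7 apoptosis genes were higher in cKO on all 3 arrays (Bax, Bbc3, Bik, Bok, Casp1, Casp4 and Mcl1), which is 19.4% of them against a background of 11.5%. Lower in cKO on all 3 arrays were 6 genes (Bad, Birc2, Casp6, Diablo, Endog and Ripk1), 16.7% of them against 12.6%. The other 23 had both signs, where 24.1% of all genes had 1 sign on all 3 arrays. With normexp and loess 10 were higher and 9 lower on all 3 arrays, with backgrounds of 17.8% and 17.6%. The excess over the background was not tested, because the list was chosen with results of these arrays known. Normexp with loess moved 13 of the 36 means away from 0 by over 1.5 times, moved 6 toward 0 by as much and turned the sign of 4. Among the 13, it gave -0.31 for Casp6, 0.47 for Mcl1, -0.57 for Ripk1, 0.41 for Casp9, 0.37 for Tradd, 0.38 for Casp2 and -0.42 for Casp8.

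**Figure D1:**
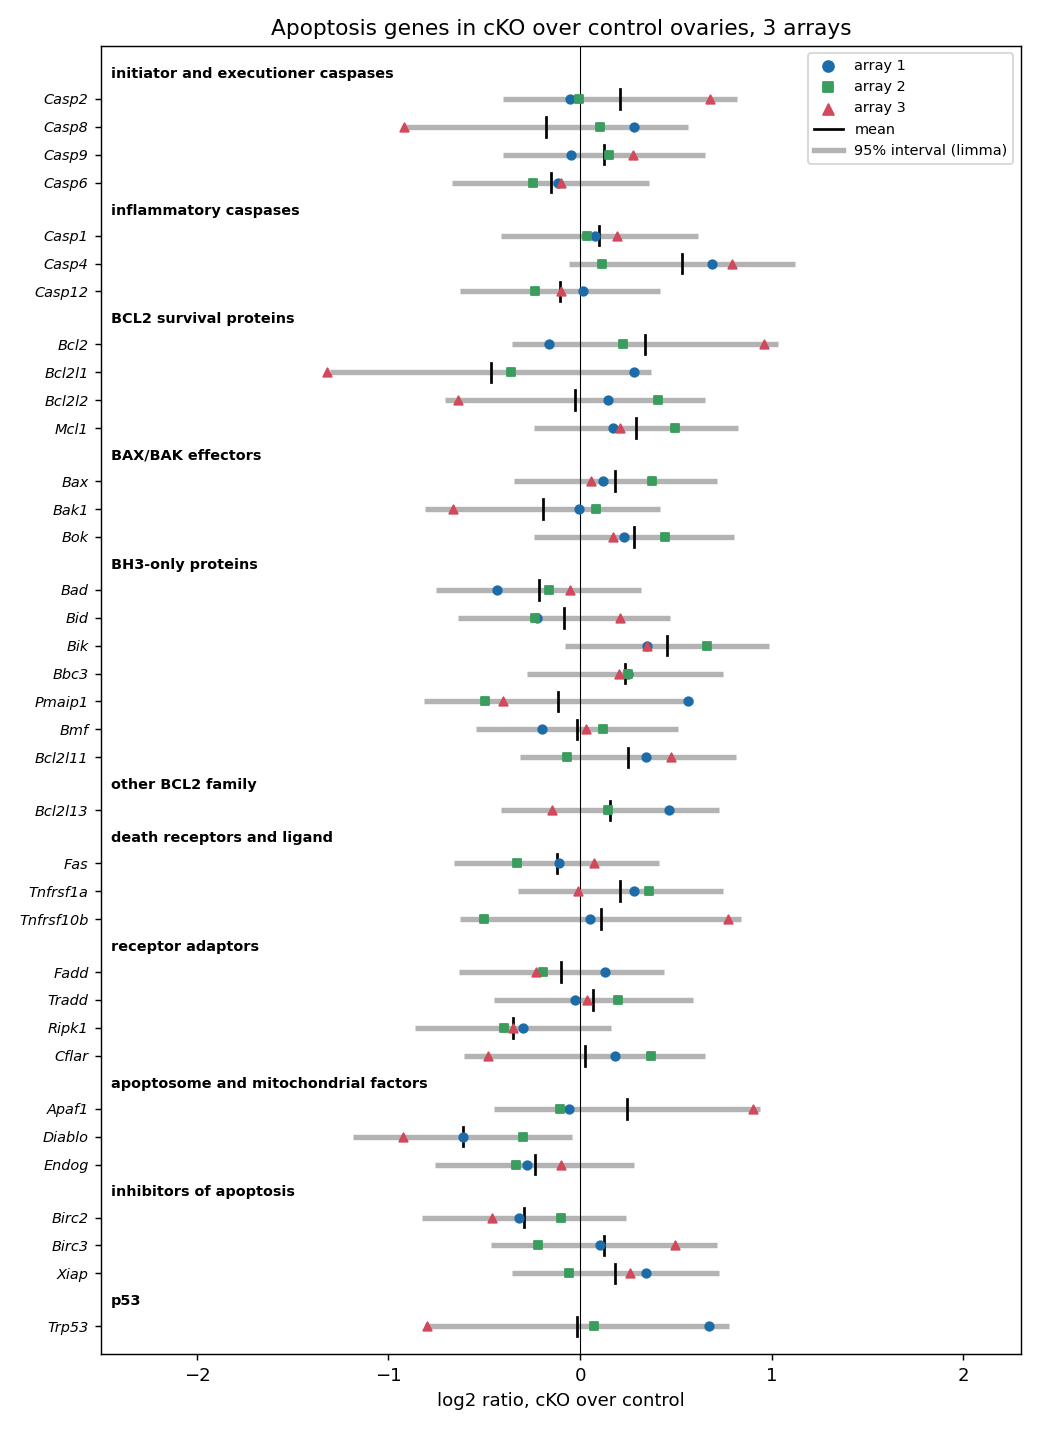
Log2 ratio of cKO over control (x axis) of the 36 apoptosis genes (y axis, grouped by role) on each array, with the mean and limma's 95% interval as a grey bar. The Diablo interval is the 1 that excludes 0, and the array 3 values of Bcl2l1 (-1.32), Bcl2 (0.96) and Apaf1 (0.90) lie far from those of the other arrays.

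Array 3 stood apart from the other arrays. Over all genes tested the log2 ratios of arrays 1 and 2 correlated at Pearson's r = 0.493, those of arrays 1 and 3 at 0.0987 and those of arrays 2 and 3 at -0.162. Over all probes the lowest value was -0.201, again for arrays 2 and 3. Genes of 1 array share its hybridisation and are not independent. Over the 36 apoptosis genes the same correlations were 0.326, 0.0163 and 0.132. Past 0.5 in either direction were 4 apoptosis genes on array 1, 2 on array 2 and 11 on array 3, where 23.7%, 31.0% and 44.4% of all genes were past it. In 8 apoptosis genes the arrays spanned more than 1, and in 7 of the 8 array 3 was the one farthest from the others. Without array 3 the median of the 36 genes was 0.04, 0 of them were called and 1 had an unadjusted p under 0.05, where 18.4% of all genes did, while 9 means changed sign. Over arrays 1 and 2 alone the mean was -0.45 for Diablo, 0.40 for Casp4, -0.038 for Bcl2l1, 0.031 for Bcl2, -0.082 for Apaf1, 0.20 for Casp8 and 0.37 for Trp53.

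The tissue was checked on the same arrays, and the targeted gene was read there. All 8 oocyte markers and all 9 luteal and steroidogenic markers of the lists used were well above background in both channels on every array. The steroid carrier Star, at -4.09 ± 0.12 (SD, n = 3), was the 1 marker gene called (limma, adjusted p = 0.0160). Its adjusted p was 0.0544 with arrays scaled to a common spread and 0.140 with no filter on dim probes, so the call was lost there. The targeted gene, Arntl in the files, had ratios of 0.26, 0.10 and -0.28 and an adjusted p of 1.00. Where its probe lies relative to the deleted part was not given, so it does not check the labels. Between 67.4% and 69.1% of the spots were well above background in the cKO channel, and between 62.9% and 65.8% in the control channel. The 12 macrophage markers had medians of 0.73, 0.89 and -0.60 on arrays 1 to 3, and the 6 smooth muscle markers 0.23, 1.16 and -1.21.

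Among the mitochondrial factors, Diablo encodes Smac, a protein that leaves mitochondria and frees caspases from their inhibitors. In processed intensity units, its probe on arrays 1 to 3 read 9683, 11796 and 13651 in cKO, against 14796, 14498 and 25936 in control. Signals were not scaled between arrays, and each ratio is taken within its array. The log2 ratios were -0.61, -0.30 and -0.93, so the cKO pool was the lower one on every array. The mean was -0.61 ± 0.31 (SD, n = 3), a 1.53-fold higher signal in control, with a 95% interval of -1.18 to -0.04. The adjusted p in limma was 0.762, and this did not pass. With normexp and loess the mean was -0.62 and the adjusted p 0.295. A second, dimmer Diablo probe gave -1.14, 0.77 and -1.99, with array 2 of the opposite sign, and 1.42 as its SD. The probes were designed on different sequence records, NM_023232 and BC024780. Their first 30 of 60 bases, from the deposited array files, are printed because the probes gave different spreads:
Diablo brighter probe: cacacccttaagttcagtagctgtttaact
Diablo dimmer probe: ctgtaagatactagaaggactaagtagaac
The gene lies on chromosome 5 in RefSeq's GRCm38.p6 annotation. Probe positions were not used here.

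Endog, a mitochondrial nuclease that can move to the nucleus, was also lower on all 3 arrays, with log2 ratios of -0.27, -0.33 and -0.10 and a mean of -0.24 ± 0.12 (SD, n = 3). Its signal was 2300.4, 2412 and 4255 in cKO, against 2782, 3038 and 4566 in control. Apaf1, the scaffold of the apoptosome, stood near 0 on arrays 1 and 2 and far above it on array 3, with -0.06, -0.10 and 0.90. A second Apaf1 probe was above 0 on every array, at 0.12, 0.29 and 0.58. Over Apaf1, Diablo and Endog the median of the means was -0.24.

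Of the caspases that start or carry out apoptosis, none kept a sign above 0 on all 3 arrays. Casp6, an executioner caspase that cleaves nuclear lamins, was lower in cKO on each, with -0.12, -0.24 and -0.10 and a mean of -0.15 ± 0.08 (SD, n = 3). Its signals were 20044, 16507 and 25552 in cKO, against 21714, 19538 and 27339.5 in control, so that the groups overlapped across arrays. Casp9, activated by the apoptosome, had -0.05, 0.15 and 0.28, and Casp2, an initiator that responds to DNA damage, had -0.05, -0.0047 and 0.68. Casp8, the initiator recruited to death receptors, had 0.28, 0.11 and -0.92, with array 3 opposite to the others. The control signal of Casp8 was 1743, 1551 and 3191 on arrays 1 to 3, against 2122, 1669.6 and 1689.5 in cKO, so the control pool of array 3 gave the highest of the 6 signals. The median over these 4 caspases was -0.01.

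The inflammatory caspases cut cytokines and gasdermin D and cause another, lytic form of death. Casp4, the sensor of bacterial lipopolysaccharide inside cells, had the highest mean of the 36 genes in the scanner ratios. It read 1650.2, 928 and 1054 in cKO, against 1024, 855 and 608 in control. The log2 ratios were 0.69, 0.12 and 0.79, with cKO above control on every array and array 2 the lowest. The mean was 0.53 ± 0.36 (SD, n = 3), 1.45-fold, with a 95% interval of -0.06 to 1.13. The adjusted p in limma was 0.930, which did not pass. With normexp and loess the Casp4 mean was 0.40, below those of Bbc3 (0.48), Mcl1 (0.47) and Casp9 (0.41). Casp1, which releases interleukin 1 beta, was above 0 by little on each array, with 0.08, 0.04 and 0.19. Casp12, a caspase of the endoplasmic reticulum in rodents, had 0.02, -0.24 and -0.10, and -0.51 on average after normexp and loess, against -0.11 from the deposited ratios. Myeloid cells express Casp1 and Casp4. The summed signal of the 12 macrophage markers was 88887 to 182306 in the cKO pools and 41444 to 76682 in the control pools, most of it from Lyz2, and all 12 were well above background in both channels. Without Lyz2 the sums were 30864, 21829 and 13913 in cKO, against 17449.8, 11921 and 26399 in control, so the groups overlapped and control was higher on array 3. Their part in the caspase ratios was not tested.

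The survival proteins of the BCL2 family did not move as one. Mcl1, a short-lived survival protein, was higher in cKO on each array, at 28434, 22584 and 26132 in cKO, against 25274, 15986 and 22623 in control, with log2 ratios of 0.17, 0.50 and 0.21 and a mean of 0.29 ± 0.18 (SD, n = 3). A second Mcl1 probe gave 0.09, 0.09 and 0.39. Both Mcl1 probes were thus above 0 on every array, and limma's adjusted p for the brighter one was 1.00. Bcl2l2, which encodes BCL-W, had 0.15, 0.41 and -0.64. A second Bcl2l2 probe ran the other way on each array, at -0.45, -0.35 and 0.59.

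Bcl2 and Bcl2l1, which encodes BCL-XL, spread widely between arrays, and Bcl2l1 had the highest SD of the 36 genes. The Bcl2 probe read 969, 703 and 1057 in cKO, against 1083, 603 and 544 in control, giving log2 ratios of -0.16, 0.22 and 0.96 and a mean of 0.34 ± 0.57 (SD, n = 3). Bcl2l1 read 2149, 1464 and 2039.7 in cKO, against 1766, 1877 and 5105 in control, giving 0.28, -0.36 and -1.32 and a mean of -0.47 ± 0.81 (SD, n = 3). The array 3 control signal was the highest of the 6 for Bcl2l1 and the lowest of the 6 for Bcl2. On that array Bcl2 and Bcl2l1 were the highest and the lowest of the 36 ratios. The limma 95% intervals were -0.35 to 1.03 for Bcl2 and -1.31 to 0.37 for Bcl2l1, both spanning 0. The ratio of Bax to Bcl2, often read as a balance of death over survival signals, differed between cKO and control by 0.28, 0.15 and -0.90 on the log2 scale, a mean of -0.16 ± 0.65 (SD, n = 3). It turned with the Bcl2 probe: against the second probe the mean was 0.22 ± 0.82 and against the dimmest 0.35 ± 0.76 (SD, n = 3 each).

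Probes of the same gene did not give the same answer for Bcl2 and Bcl2l1. Bcl2 had 3 probes that passed the brightness filter, of which the second gave 0.13, 0.83 and -1.08. The dimmest gave -0.48, 0.87 and -0.89. On array 3 the brightest probe was at 0.96 while both dimmer ones were near -1. Bcl2l1 also had 3, of which the second gave 0.95, 0.66 and -1.01 and the dimmest 1.35, 0.23 and 0.14. Of these probes 5 are shown by their first 30 bases because they read different stretches of these genes, each with the sequence record of the array design:
Bcl2 brightest probe, NM_009741: catataatggctctttgtttgtgttgttag
Bcl2 dimmest probe, AK077913: ggagagaagctattttgtaagatgtttagt
Bcl2l1 brightest probe, NM_009743: ttattccttgtgaagatgatatactatttt
Bcl2l1 second probe, NM_009743: attggtgagtcggattgcaagttggatggc
Bcl2l1 dimmest probe, NM_009743: agacccagtaagtgagcaggtgttttggac
The brightest and the dimmest Bcl2 probe each hold 35% G and C over their 60 bases. The Bcl2l1 probes hold 31.7% in the brightest, 50% in the second and 45% in the dimmest. Bcl2 lies on chromosome 1 and Bcl2l1 on chromosome 2. Of the 18 apoptosis genes with more than 1 probe past the filter, 5 (Bcl2, Bcl2l1, Cflar, Fas and Ripk1) had probe means on both sides of 0. For Fas this rests on a dim probe that was well above background in control on 1 array only.

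**Figure D2:**
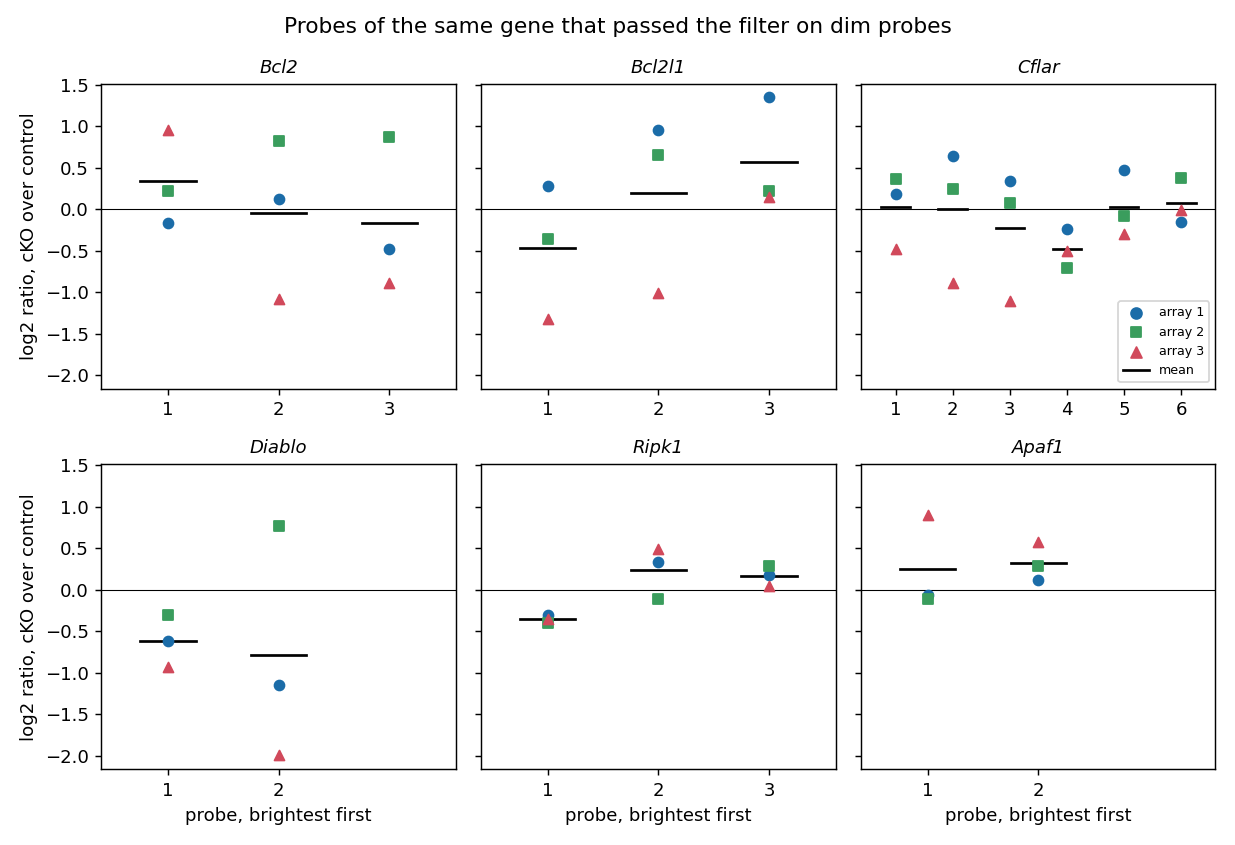
Log2 ratio of cKO over control (y axis) for each probe of 6 apoptosis genes (x axis, brightest first), with arrays as points and the mean as a bar. The brightest Bcl2 probe has array 3 at 0.96 and the dimmer ones at -1.08 and -0.89, and the brightest Ripk1 probe lies below 0 on all 3 arrays while the others average above it.

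The spread between arrays was far wider than the spread between spots. For 7 apoptosis genes the array carries 10 spots of 1 probe. The mean SD among the 10 spots of an array was 0.0411 for Bcl2l1, against an SD of 0.808 between arrays, 19.7 times as much. For Trp53 it was 0.0417 against 0.740, and for Bcl2 0.0640 against 0.569. Bax (0.0305 against 0.167), Tnfrsf1a (0.0463 against 0.196) and Fas (0.0772 against 0.200) were also wider between arrays. The opposite held for Fasl, whose spots varied by 0.460 and whose array means varied by 0.141, in a probe near background. Spots of 1 array share the same 2 pools, so these values show the precision of the measurement and not that of the groups.

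**Figure D3:**
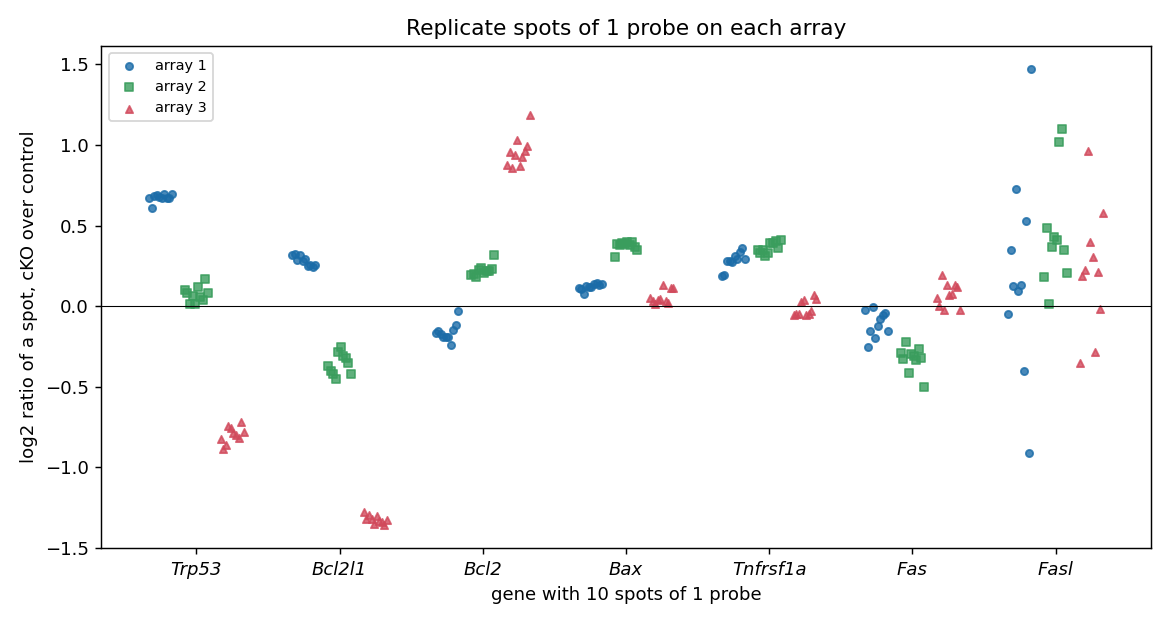
Log2 ratio of cKO over control (y axis) of each of the 10 spots of 1 probe on arrays 1 to 3, for the 7 apoptosis genes with such spots (x axis). Spots of an array cluster for Trp53, Bcl2l1 and Bcl2 while the arrays separate, and Fasl spots scatter between -0.91 and 1.47 on array 1.

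BAX, BAK and BOK open the mitochondrial membrane. Bok, known from the ovary and other reproductive tissues, was higher in cKO on each array, with signals of 29254, 29387 and 37219.6 in cKO, against 24963, 21608 and 32989 in control and log2 ratios of 0.23, 0.44 and 0.17. Its mean was 0.28 ± 0.14 (SD, n = 3). Bax was also higher on each, with 0.12, 0.37 and 0.06 over 10 spots and a mean of 0.18 ± 0.17 (SD, n = 3). After normexp and loess its array 3 value was -0.015. Bak1 lay near 0 on arrays 1 and 2 and below it on array 3, at -0.01, 0.08 and -0.66, and a second Bak1 probe was lower on every array, at -0.42, -0.41 and -0.14. The median over these 3 effectors was 0.18.

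BH3-only proteins sense stress and bind the other family members. Bbc3, which encodes PUMA and is induced by p53, had the least varied ratio of the 36 genes, 0.25, 0.25 and 0.21. Its signal was 2880.3, 1851 and 2603 in cKO, against 2423, 1555 and 2258 in control. These unscaled signals varied more between arrays than the ratio did, and cKO was the higher of the 2 on each array. The mean was 0.24 ± 0.03 (SD, n = 3) with a 95% interval of -0.28 to 0.75, since limma's estimate of the spread draws on all genes, and the adjusted p was 1.00. After normexp and loess the mean was 0.48, with an adjusted p of 0.290. Bik, a BH3-only protein of the endoplasmic reticulum, had the second highest mean of all, 0.45 ± 0.18 (SD, n = 3), from 0.35, 0.66 and 0.35. Its signals were 134, 114 and 139 in cKO, against 105, 72.3 and 109 in control. The adjusted p was 0.973 in limma, and normexp with loess gave 0.20.

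The remaining BH3-only genes showed no shared direction. Bad, which phosphorylation by survival signals holds inactive, was lower on each array, with -0.43, -0.16 and -0.05. A second Bad probe gave 0.17, 0.12 and -0.75. Bid, activated by caspase 8, had -0.23, -0.24 and 0.21, and Bmf had -0.20, 0.12 and 0.03. Bcl2l11, which encodes BIM, was above 0 on arrays 1 and 3, with 0.34, -0.07 and 0.48. Pmaip1, which encodes NOXA, had 0.56, -0.50 and -0.40, with array 1 opposite to the others. Hrk was not well above background in either channel on any array. Bcl2l13, a mitochondrial relative of BCL2, had 0.46, 0.15 and -0.14. Over the 7 BH3-only genes tested the median was -0.01, and over the 10 pro-death BCL2 proteins it was 0.08.

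Fas, Tnfrsf1a and Tnfrsf10b, the death receptors tested, had both signs at their brightest probes. Fas, the receptor of FASL, had -0.11, -0.33 and 0.07 over 10 spots, and a second Fas probe 0.27, 0.32 and 0.04. That second probe read 25.9 to 54.2 units in cKO and 24.8 to 44.9 units in control. It passed the filter only through cKO, since in control it was well above background on 1 array. Tnfrsf1a, the main receptor of tumour necrosis factor, read 18395, 17205 and 19240.3 in cKO, against 15138, 13386 and 19387 in control, with 0.28, 0.36 and -0.01. Tnfrsf10b, a receptor of TRAIL, had 0.05, -0.50 and 0.77 on a probe of 42.0 to 89.7 units in cKO and 52.5 to 59.5 units in control. The brighter Fasl probe was well above background on 2 arrays in cKO and on 1 array in control, and has no test. Its 3 ratios were 0.21, 0.46 and 0.22.

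Among the adaptors, Ripk1, a kinase that steers receptor signals toward survival or death, was lower in cKO on each array at its brightest probe. The signals were 677, 581 and 883 in cKO, against 832, 766 and 1126 in control, the ratios -0.30, -0.40 and -0.35 and the mean -0.35 ± 0.05 (SD, n = 3). The other 2 Ripk1 probes averaged 0.24 and 0.17, and the mean of the 3 probes was 0.02. The direction of Ripk1 thus rests on the choice of probe. Fadd, which links receptors to caspase 8, had 0.13, -0.20 and -0.23, and Tradd, the adaptor of TNFRSF1A, had -0.03, 0.20 and 0.04. Cflar, the caspase 8 inhibitor c-FLIP, had 0.19, 0.37 and -0.48. Its 6 probes had means between -0.48 and 0.07.

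Of the inhibitor of apoptosis proteins, Birc2, which encodes the ubiquitin ligase cIAP1, was lower in cKO on each array. Its signals were 3379, 2894 and 3536 in cKO, against 4216, 3101 and 4862 in control, with log2 ratios of -0.32, -0.10 and -0.46 and a mean of -0.29 ± 0.18 (SD, n = 3). After normexp and loess the mean was -0.57, with an adjusted p of 0.289. Birc3, which encodes cIAP2, had 0.10, -0.22 and 0.50. Xiap, which blocks caspases directly, had 0.35, -0.06 and 0.26.

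Trp53 encodes p53, which induces several of the genes above. Its messenger read 2711, 1803 and 2192 in cKO, against 1698, 1712 and 3811 in control. The log2 ratios were 0.67, 0.07 and -0.80, above 0 on array 1 and below it on array 3, and the mean was -0.02 ± 0.74 (SD, n = 3). A second Trp53 probe gave -0.21, 0.01 and -0.50.

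**Figure D4:**
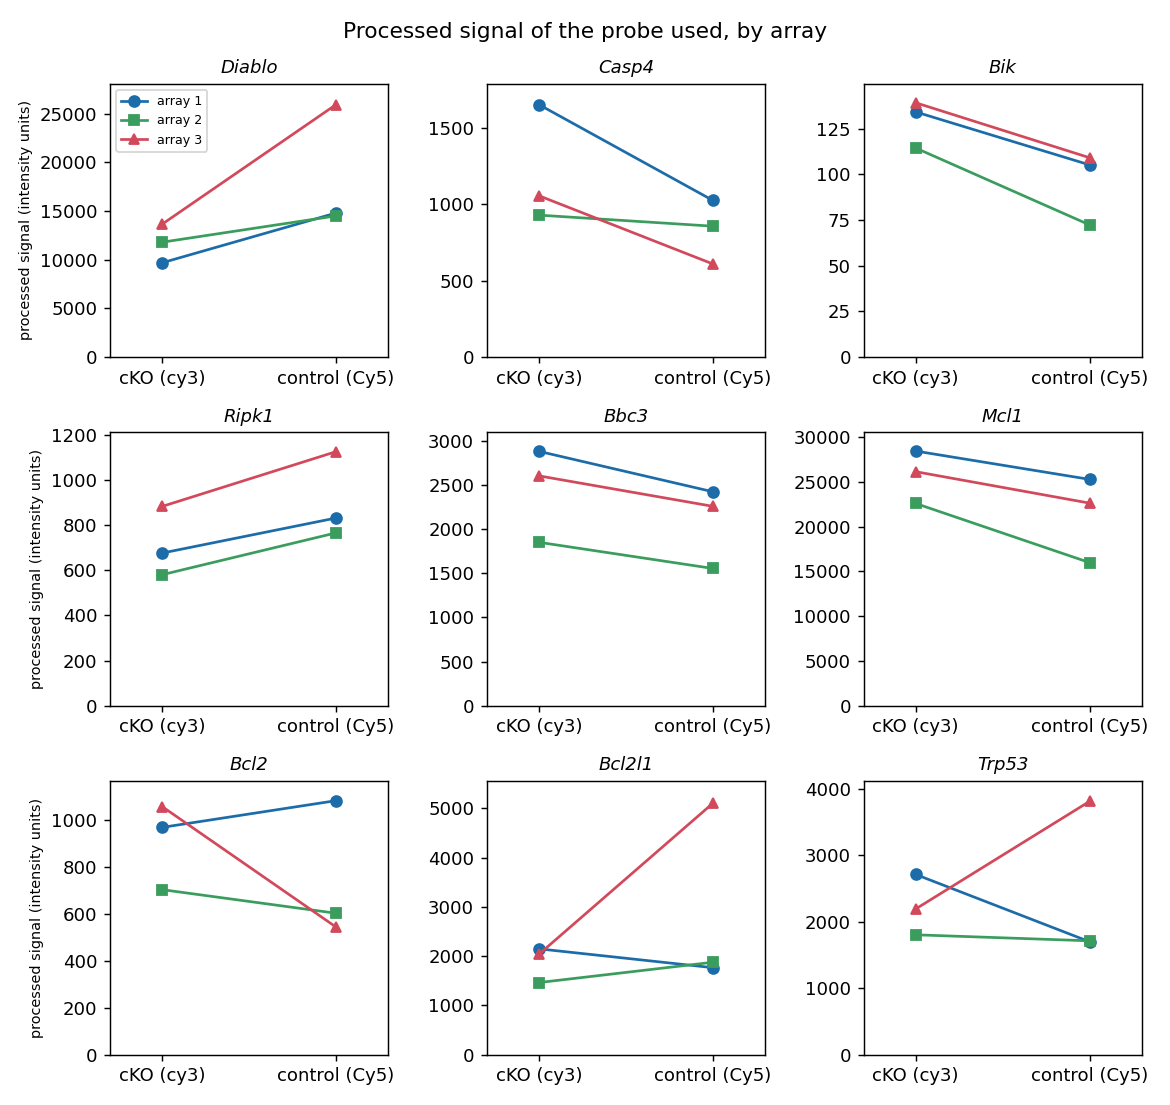
Processed signal in intensity units (y axis, from 0) of the probe used for 9 apoptosis genes, in the cKO and the control pool of each array (x axis), with a line per array. Lines slope the same way on all arrays for Diablo, Casp4, Bik, Ripk1, Bbc3 and Mcl1, and both ways for Bcl2, Bcl2l1 and Trp53.

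A further 53 genes of the pathway, drawn up as a list apart from the 40 names, gave 51 genes tested. Limma called 0 of them, 6 had an unadjusted p under 0.05, and normexp with loess gave 0 and 13. From the scanner ratios the unadjusted share was 11.8% of the list, against 5.98% of all genes. With loess it was 13 of 51 in the list, against 12.3% of all genes. On all 3 arrays 9 were higher in cKO (17.6%, against 11.5% of all genes) and 6 lower (11.8%, against 12.6%), with a median of 0.07 over the list. These differences in share were not tested. Cytochrome c (Cycs), which mitochondria release, had a mean of 0.14 ± 0.75 (SD, n = 3), with both signs among its arrays.

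The highest ratio in that list belonged to Tnfrsf12a, which encodes Fn14, the receptor of the cytokine TWEAK. It read 60815, 25419 and 22031 units in cKO, against 7334, 6035 and 9501 units in control. The log2 ratios were 3.05, 2.07 and 1.21, a mean of 2.11 ± 0.92 (SD, n = 3), with an adjusted p of 0.150 in limma. Cdkn1a, which encodes the cell cycle inhibitor p21, read 6052, 1740.3 and 3141 units in cKO, against 761, 646 and 963 units in control. Its log2 ratios were 2.99, 1.43 and 1.71, a mean of 2.04 ± 0.83 (SD, n = 3), with an adjusted p of 0.138. Both genes were higher in cKO on every array, as 11.5% of all genes were, and neither passed. They are named because their ratios were the largest of the list. With the slide as a block, or without array 2, the list had 2 genes called, Tnfrsf12a and Cdkn1a. The same fits called 227 and 270 of all genes, against 54 in the main fit. Why the counts differ between fits was not tested.

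The other genes named by the rule had smaller ratios. Bcl2a1c and Bcl2a1b, survival proteins of immune cells, had means of 0.96 ± 0.34 and 0.93 ± 0.57 (SD, n = 3 each) and were higher on every array. They are near-identical copies of Bcl2a1a, so their signals may be shared between copies and are uncertain. Ripk2 (0.54 ± 0.64) and Pycard (0.42 ± 0.20), both known from innate immune signalling, were also higher on each array. Bnip3, a mitochondrial BCL2 relative induced by hypoxia, was lower on each, at -0.82, -0.99 and -0.48. Birc6, a large inhibitor of apoptosis protein, was lower too, at -0.87, -1.002 and -0.39. Adjusted p-values in limma were 0.344 for Bcl2a1c, 0.537 for Bcl2a1b, 0.515 for Bnip3 and 0.561 for Birc6.

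**Figure D5:**
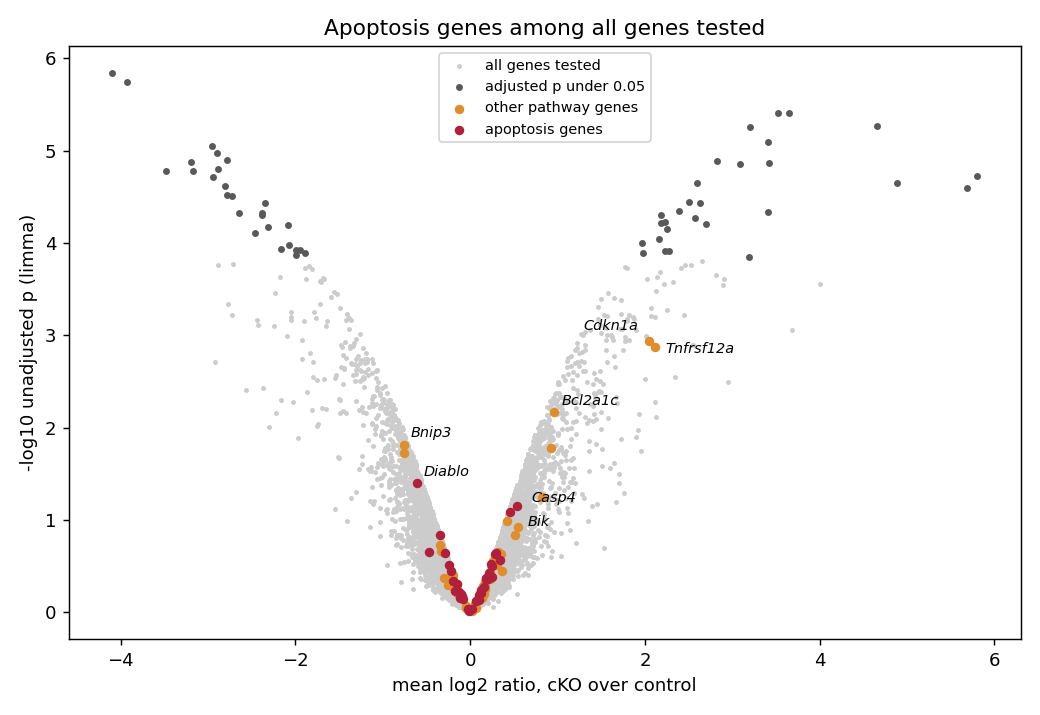
Mean log2 ratio of cKO over control (x axis) against the negative log10 of limma's unadjusted p (y axis) for the 17898 genes tested. The 36 apoptosis genes lie between -0.61 and 0.53, below the 54 genes with an adjusted p under 0.05, and Cdkn1a and Tnfrsf12a of the wider pathway lie nearest to these.

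Start sites of the apoptosis genes were searched for the E-box that BMAL1 binds with CLOCK. RefSeq's GRCm38.p6 promoter table gave 48 windows for 35 of the genes, each from 250 bases before to 50 after a start. The canonical E-box CACGTG, which reads the same on both strands, was in 5 of the 48 windows (10.4%), against 2349 of all 32851 windows (7.15%). They belong to Bbc3, Bax, Casp1, Fas and Trp53. The related element CACGTT, searched on both strands, was in the windows of Bmf and Fadd, 4.17% of windows against 4.68% of all. The 4 windows with an E-box before the start are printed up to the base before the start, 5′ to 3′ on the strand of the gene, with the E-box in capitals:
Bbc3, chr7:16310181-16310430, + strand: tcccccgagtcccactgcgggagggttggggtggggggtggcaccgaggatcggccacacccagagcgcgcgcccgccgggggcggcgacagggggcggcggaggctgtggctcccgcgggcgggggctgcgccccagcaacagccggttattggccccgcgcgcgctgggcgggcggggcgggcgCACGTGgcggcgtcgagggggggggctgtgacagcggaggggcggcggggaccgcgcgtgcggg
Bax, chr7:45466899-45467148, - strand: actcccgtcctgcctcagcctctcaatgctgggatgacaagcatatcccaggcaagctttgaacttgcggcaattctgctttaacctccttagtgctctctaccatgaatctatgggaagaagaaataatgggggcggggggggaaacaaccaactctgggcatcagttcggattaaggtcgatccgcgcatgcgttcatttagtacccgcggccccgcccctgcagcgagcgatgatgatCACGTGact
Casp1, chr9:5298267-5298516, + strand: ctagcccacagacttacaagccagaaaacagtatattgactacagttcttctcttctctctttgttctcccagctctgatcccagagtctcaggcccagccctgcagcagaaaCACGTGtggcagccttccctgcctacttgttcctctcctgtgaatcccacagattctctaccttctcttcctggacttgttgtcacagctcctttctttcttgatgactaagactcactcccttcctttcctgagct
Fas, chr19:34290409-34290658, + strand: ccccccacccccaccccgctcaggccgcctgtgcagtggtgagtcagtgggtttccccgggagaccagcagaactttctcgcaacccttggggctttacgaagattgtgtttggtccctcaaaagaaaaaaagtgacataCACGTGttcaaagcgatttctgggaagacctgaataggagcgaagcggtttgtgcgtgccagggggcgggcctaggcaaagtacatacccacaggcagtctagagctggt
The first base of the E-box lies at -64 in Bbc3, -9 in Bax, -137 in Casp1 and -110 in Fas, counted from the start. Bax has another at 36 and Trp53 one at 11, both after the start. Bbc3, Bax and Casp1 were higher in cKO on every array, as 11.5% of all genes were. Their means were 0.24, 0.18 and 0.10, and none was called. After normexp and loess Bax was at -0.015 on array 3. Fas and Trp53 had both signs. A link between the E-box and these ratios was not tested. These matches describe the sequence and do not show binding.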

How the data were processed

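Ovary RNA was amplified with Agilent's low input linear kit and hybridised to 3 two-colour arrays, per the labels' protocols. Per the file headers, the scanner software was Agilent Feature Extraction 9.1.3.1. The deposited files hold processed intensity values for cy3 and Cy5, corrected for local background and dye-normalised by the scanner software, and log10 ratios of red over green made from them by the authors with that software. Any further step was not given in the sources used here. The deposited value table holds the same log10 ratios (largest gap 0) and its median was 0 on each array, so its scale, centring and direction are known.

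Each log10 ratio was turned into a log2 ratio of cKO over control. Of 45018 features, 43379 were not controls. Outlier spots by the scanner's own marks numbered 13, 4 and 0 on arrays 1 to 3 and were dropped. The spots of a probe were averaged, which gave 41174 probes. A probe counted as well above background on an array where more than 0.5 of its spots were. Probes so in 1 channel on all 3 arrays were kept (26426), and each gene name was read by its brightest probe. Of the 68 apoptosis probes 61 were kept, and the probe used for each of the 36 genes tested passed that measure in cy3 and in Cy5 on every array and was never saturated. The sequence records of 59 probes were in RefSeq's table, all under the same symbol.

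The ratios were tested against 0 with lmFit and eBayes of limma 3.58.1 in R 4.3.3 (intercept only, two-sided). P-values were adjusted by Benjamini and Hochberg's method for 17898 genes, and genes under 0.05 were called. The fit was tested on simulated data, and the simulation was revised once: with each gene's own SD as noise and smaller changes no changed gene was recovered, so the version kept uses limma's moderated SDs and larger changes. That version recovered the changed genes and also called some unchanged ones. It checks the computation and not the power to find changes of the size seen here. No dye term could be fitted. Array 1 was on 1 slide and arrays 2 and 3 on another.

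The apoptosis genes, the wider pathway list and the marker lists were chosen with earlier results of these data known. All apoptosis genes are named. Of the wider list the rule names genes called, or otherwise up to 8 with the largest mean ratio and the same sign on all 3 arrays, and Cycs was added after its values were seen, as were Lum, Col1a2 and Dcn of the markers. Of each marker list up to 2 genes with the largest mean ratio are named. Some genes of the wider list and 1 probe sequence are not reported here. Alternatives were normexp with an offset of 50 and loess within arrays, centring, scaling to a common spread, no filter and a stricter filter on dim probes, the mean of all kept probes, the slide as a block, arrays 2 and 3 alone, and leaving out each array. The macrophage sum without Lyz2 and the Bax to Bcl2 ratio by probe were chosen after seeing the data.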

Additional observations from a re-analysis of the deposited data

How the results depend on the processing

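No apoptosis gene was called under any of the 11 alternatives, of which arrays 2 and 3 alone and leaving out array 1 are the same fit, and the median of these genes stayed between 0.03 and 0.08. Over all genes the count called, 54, became 6 when arrays were scaled to a common spread and 0 with no filter on dim probes (1844 at an unadjusted p under 0.05). It became 118 when arrays 2 and 3, which share a slide, were used alone, 227 with the slide as a block, and it ranged from 28 to 270 when an array was left out (28 without array 3, 270 without array 2). The wider pathway list had 2 genes called with the slide as a block, and 0 to 2 when an array was left out (2 without array 2). The cause of these shifts was not tested. The means of some apoptosis genes changed sign, none of them called. With normexp and loess Bak1 was 0.0401, Bcl2l11 -0.0472, Bcl2l2 0.19 and Bid 0.0747. With a common spread Bcl2l2 was 0.0435 and Trp53 0.12. With the mean of all kept probes Bcl2l1 was 0.10, Cflar -0.0957, Fas 0.0442 and Ripk1 0.0193. The Fas value there includes its dim second probe. With the slide as a block Bcl2l2 was 0.016, Pmaip1 0.056 and Trp53 0.16. On arrays 2 and 3 alone Bmf was 0.0764 and Cflar -0.0558. When an array was left out, the mean ranged from -0.0822 to 0.42 for Apaf1, from -0.33 to 0.0382 for Bak1, from -0.25 to 0.28 for Bcl2l2, from -0.057 to 0.30 for Birc3, from -0.0823 to 0.0764 for Bmf, from -0.0285 to 0.34 for Casp2, from -0.41 to 0.20 for Casp8, from -0.15 to 0.28 for Cflar, from -0.45 to 0.0799 for Pmaip1, from -0.22 to 0.41 for Tnfrsf10b and from -0.36 to 0.37 for Trp53. Each apoptosis gene not named here kept its sign and its side of the threshold under every alternative. No paired analysis was possible because each array is already the within-spot ratio of 1 cKO and 1 control pool, which leaves 1 group of arrays. Fasl and Hrk were too near background to test.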

Other observations

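Markers of other cell types in the ovary were measured on the same arrays, and none outside the luteal list was called. Fibroblast markers had medians of 0.51, 0.94 and -0.08 on arrays 1 to 3, with Col1a1, a collagen chain, at 1.01 ± 0.41 and Col3a1 at 0.58 ± 0.14 (SD, n = 3 each). Both were higher in cKO on every array, while Lum was lower on every array (-0.65, -0.31 and -0.17) and Col1a2 and Dcn were below 0 on array 3. Lymphocyte markers had medians of -0.09, 0.38 and 0.24, with 5 means above 0 and 4 below. The killer cell protease Gzmb was at 0.80 ± 0.26 (SD, n = 3), while the T cell gene Cd3e was lower on every array, at -0.25, -1.20 and -0.42. Neutrophil markers had 0.35, 0.13 and 0.09. Granulosa markers had -0.45, -0.22 and 0.20, and 7 of the 8 had a mean below 0. Aromatase (Cyp19a1), the 1 with a mean above 0, was at 2.25 on array 3 against -0.14 and 0.24 on the others. Amh was at 0.23, -0.45 and -1.28 on arrays 1 to 3. Luteal and steroidogenic markers had 0.15, -0.40 and -0.25, and 6 of the 9 had a mean below 0. Lower in cKO on all 3 arrays were 4 of them (44.4%, against 12.6% of all genes), and higher were 2 (22.2%, against 11.5%). The progesterone-degrading enzyme Akr1c18 had 2.86, -0.40 and 2.66. Oocyte markers had -0.20, -0.01 and -0.14, endothelial markers -0.08, 0.08 and -0.18, and epithelial markers 1.20, -0.45 and -0.42. The oviduct gene Ovgp1 was at 1.495, -4.20 and 0.75.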
